A study of Homo sapiens with 21 samples.

Results

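YAP1, WWTR1 and 8 genes linked to their activity or to a mesenchymal cell state were followed across 7 groups of SH-SY5Y neuroblastoma cells, by RNA level on Affymetrix PrimeView arrays. The 10 genes (YAP1, WWTR1, TEAD1, CCN1, CCN2, SOX9, SNAI2, PRRX1, TWIST1 and VIM) were chosen by name, among 18132 genes with a probe set of their own. They are represented by 28 of 49372 probe sets. Each gene was read by its brightest probe set, judged by the mean of the 21 arrays, and only probe sets annotated to exactly 1 gene were eligible.

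SH-SY5Y is an established human line of sympathetic neuroblast origin. The cells were wild type (WT) or mutated to APP-V717F, an amyloid precursor protein mutation of inherited Alzheimer's disease, and the labels describe 1 mutated line, whose making is not given in the sources used here. Differentiation of all groups took 3 to 4 days in medium that held both BDNF (50 ng/mL) and retinoic acid (10 µM), and exposure followed for 72 h to vehicle (0.1% DMSO) or to a compound in the same vehicle. The WT groups received DMSO, AG494 (a tyrosine kinase inhibitor of the EGF receptor), NOSCA or PALBO. The APP groups received DMSO, AG494 or NOSCA. The names NOSCA and PALBO are the submitters' own, and the doses are not given in the sources used here. Each group had 3 arrays, 12 WT and 9 APP arrays in all. The labels speak of 3 independent experiments, and p-values measure the spread between those and not between independently mutated lines. The submitters' sample numbers fall into 3 runs with 1 array of each group, and differences are also given within these runs.

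YAP1 and WWTR1 (TAZ) are transcriptional coactivators held in check by the Hippo kinases, which phosphorylate them and keep them out of the nucleus. In the nucleus they bind TEAD factors and raise genes such as CCN1 and CCN2, so their activity is set largely by protein location, which an RNA array does not read. In neuroblastoma, YAP1, SNAI2, PRRX1, TWIST1, SOX9 and VIM are among the genes used to tell a mesenchymal, neural crest-like state from the noradrenergic state typical of sympathetic neuroblasts.

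The short sequence to which TEAD factors bind, GGAATG or its reverse complement CATTCC, was searched on both strands in the 250 bases upstream of the transcription start. RefSeq promoter entries (GRCh38.p14) matched 5 of the 10 genes, with 6 promoters. The upstream bases of CCN2 and YAP1 are shown because they were the 2 genes whose windows held the motif, which is in capitals. The CCN2 window lies on the minus strand at chr6:131951373-131951622 and the YAP1 window on the plus strand at chr11:102110197-102110446, each written 5′ to 3′ in the direction of transcription.
CCN2: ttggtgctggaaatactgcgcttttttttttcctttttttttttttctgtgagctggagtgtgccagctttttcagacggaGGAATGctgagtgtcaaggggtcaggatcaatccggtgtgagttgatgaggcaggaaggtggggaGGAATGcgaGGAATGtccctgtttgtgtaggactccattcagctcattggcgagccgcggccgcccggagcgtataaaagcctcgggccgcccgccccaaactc
YAP1: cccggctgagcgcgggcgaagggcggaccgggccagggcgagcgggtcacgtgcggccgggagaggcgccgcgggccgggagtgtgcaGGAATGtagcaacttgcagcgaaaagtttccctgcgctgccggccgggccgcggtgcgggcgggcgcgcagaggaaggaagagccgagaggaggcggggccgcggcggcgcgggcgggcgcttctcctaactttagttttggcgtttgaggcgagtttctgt
CCN2 held the motif 3 times, starting at -169, -104 and -95 from the transcription start. YAP1 held it once, starting at -162. WWTR1 (2 promoters), VIM and PRRX1 had no match in this window. Among all 35116 promoters of the same length, 11.9% held the motif at least once and 0.0826% held it 3 times or more. Among 27 promoters of 21 listed YAP and TEAD target genes, 11 (40.7%) held it at least once and 0 held it 3 times or more. A match is a stretch of letters and was not tested as a binding site.

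The log2 values of the arrays ranged from 4.14 to 14.37, with array medians of 7.877 to 8.030. Over 8 noradrenergic neuroblast markers, the mean level was 11.21 to 11.37 in the WT vehicle arrays, 11.21 to 11.36 under PALBO and 11.28 to 11.39 in the APP vehicle arrays. It was lower under AG494, at 10.91 to 11.16 in WT cells and 10.92 to 11.00 in APP cells, and 11.15 to 11.33 and 11.19 to 11.30 under NOSCA. The lower mean under AG494 was not shared by most of these markers. Their median difference from vehicle was -0.05 in WT cells, where none passed the test described below. In APP cells it was 0.01, and INSM1 (-2.76) was the 1 marker that passed. Over 11 mesenchymal neuroblast markers, none of them among the 10 genes, the mean level was 7.87 to 7.92 in the WT vehicle arrays. It was 7.59 to 7.69 under PALBO and 7.61 to 7.83 in the APP vehicle arrays. Under AG494 it was 7.89 to 7.93 in WT and 7.72 to 7.89 in APP cells. For NOSCA these were 7.83 to 7.90 and 7.65 to 7.78. In APP vehicle cells 3 of the 11 passed as lower, LOX (-1.40), COL1A1 (-1.19) and NOTCH3 (-0.69), and TBX18 (0.71) passed as higher. Under PALBO 3 passed as lower and none as higher. Medians over the 11 were -0.03 and -0.19, where 9.25% and 6.98% of all genes passed. Immune markers (7 genes) averaged 5.85 to 5.87 in the WT vehicle arrays and endothelial markers (5 genes) 6.26 to 6.34. In RNA from a whole culture, fewer cells of a type and less RNA per cell cannot be told apart, and the part of cell composition in the results below was not tested.

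The genes sat at very different places in the range of signal. By mean signal over the arrays, PRRX1 stood at the 4.95th percentile of all genes, CCN2 at the 7.36th, WWTR1 at the 22.9th and SNAI2 at the 33.5th. YAP1 was at the 50.0th percentile, CCN1 at the 61.1st, SOX9 at the 64.1st and TEAD1 at the 78.5th. VIM (96.1st) and TWIST1 (97.0th) lay near the top. These percentiles describe probe set signal and not relative abundance, since probes differ in how brightly they hybridise. PRRX1 and CCN2 thus had signal close to the lowest on the arrays.

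**Figure D1:**
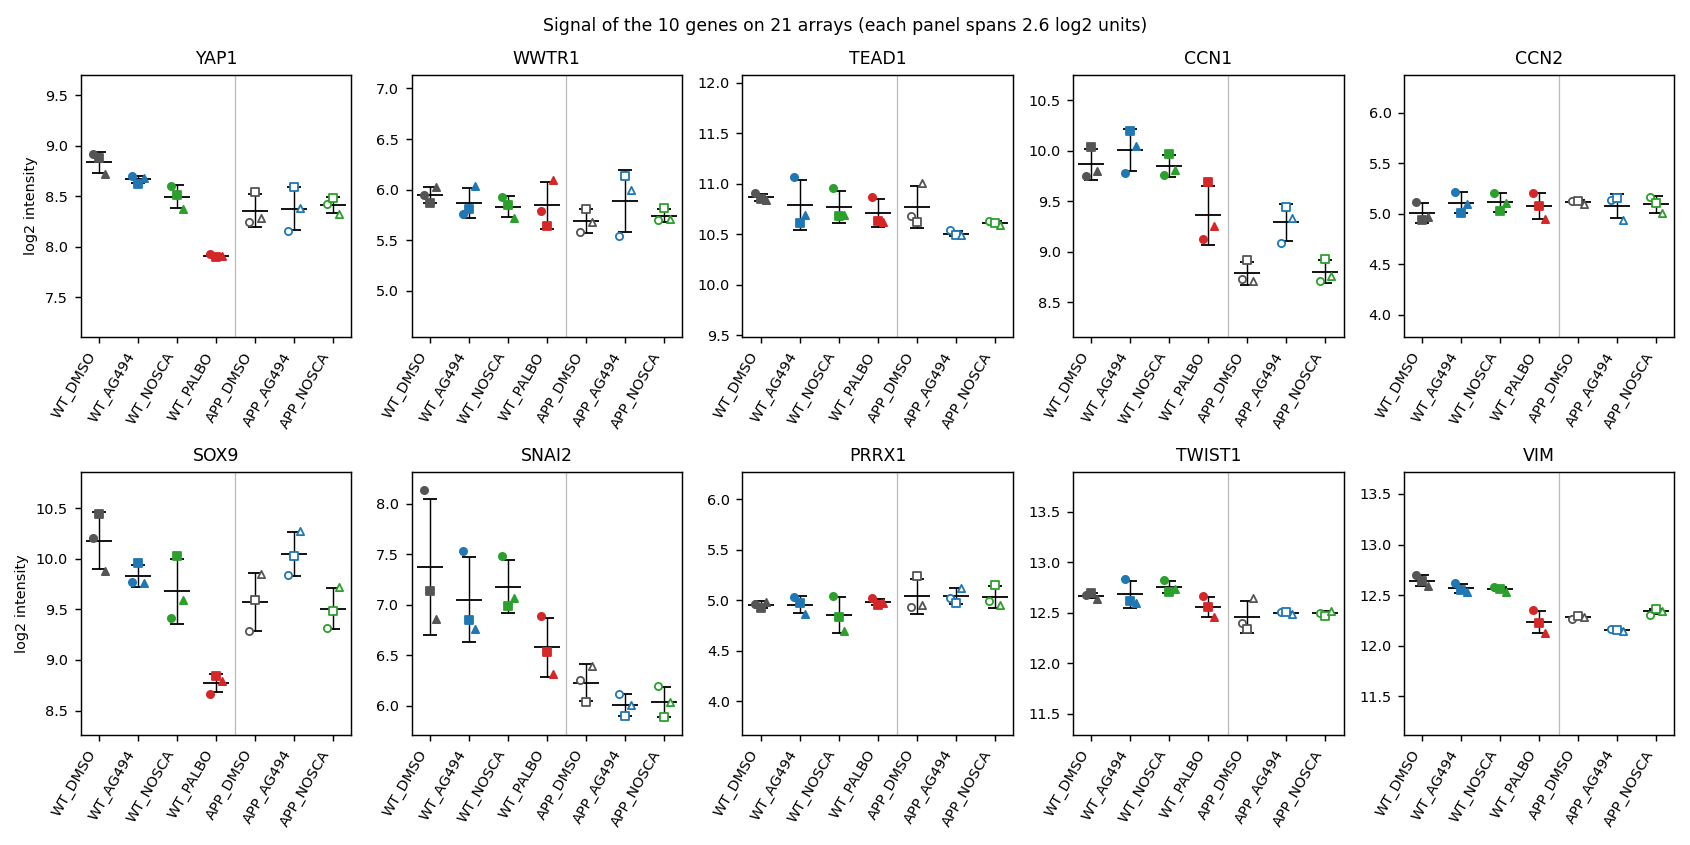
Log2 signal (vertical axes, each spanning the same number of log2 units) of the 10 genes in the 7 groups (horizontal axes). Circles, squares and triangles are replicates 1, 2 and 3, filled for WT and open for APP, and bars give the mean ± SD; CCN1 and VIM lie lower in all APP groups than in the WT groups with the same medium, and YAP1 and SOX9 reach their lowest level in WT cells under PALBO.

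YAP1, the coactivator at the centre of the pathway, was lower in APP cells under vehicle, and in WT cells under PALBO, than in WT cells under vehicle. Its log2 signal on the 3 arrays of each WT group was 8.92, 8.88 and 8.72 under DMSO, 8.70, 8.62 and 8.68 under AG494, 8.60, 8.51 and 8.38 under NOSCA, and 7.93, 7.90 and 7.91 under PALBO. In APP cells the values were 8.25, 8.55 and 8.28 under DMSO, 8.16, 8.59 and 8.39 under AG494, and 8.43, 8.49 and 8.33 under NOSCA. The WT vehicle arrays were the highest of the 21 and the 3 PALBO arrays the lowest, and neither group overlapped any other. The 3 APP groups overlapped one another and the WT NOSCA group. In limma's fit across all genes with Benjamini-Hochberg adjustment, used for every adjusted p below, YAP1 in APP vehicle cells differed from WT vehicle cells by -0.48 (log2, SE 0.10, adjusted p = 0.0036, n = 3 and 3). Within the 3 runs the differences were -0.66, -0.34 and -0.44. Under PALBO the difference from WT vehicle was -0.93 (SE 0.10, adjusted p = 1.5e-05), and within the runs -0.99, -0.99 and -0.81.

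The YAP1 difference between genotypes depended on the probe set. Of 8 YAP1 probe sets, 7 were below 0 in APP vehicle cells but 1 passed the test, with differences from -0.48 to 0.03. The mean over the 8 probe sets was -0.23 with an adjusted p of 0.22, so the call was lost when all were used. Under PALBO, all 8 were below 0, from -0.93 to -0.11, and 5 passed. The lower YAP1 signal under PALBO was therefore seen with probe sets other than the one chosen, whereas the genotype difference rested on 1.

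WWTR1, the paralogue of YAP1, did not pass the test in any comparison. Its group means lay between 5.69 ± 0.12 (SD, n = 3) in APP vehicle cells and 5.95 ± 0.08 in WT vehicle cells. The difference between these groups was -0.26 (adjusted p = 0.29). TEAD1, a member of the TEAD family of DNA-binding partners of both coactivators, had group means from 10.51 ± 0.03 in APP cells under AG494 to 10.87 ± 0.04 in WT vehicle cells. Its difference between APP and WT vehicle cells was -0.10 (adjusted p = 0.73). Among 7 other measured TEAD and VGLL family genes, none passed the test in APP vehicle cells or under PALBO, and with the run as a block 2 fell in APP cells and 1 under PALBO. Of all genes, 17.4% and 15.1% passed with the block in these comparisons. VGLL proteins are cofactors that bind TEADs. The 1 gene under PALBO was TEAD4 (-0.57, adjusted p = 0.06, and 0.00043 with the block).

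CCN1 (CYR61), a secreted matrix protein and a standard readout of YAP activity, had the second largest difference between genotypes of the 10 genes, after SNAI2, and the smallest adjusted p. In WT cells its signal was 9.75, 10.04 and 9.80 under DMSO, 9.78, 10.20 and 10.05 under AG494, 9.76, 9.97 and 9.81 under NOSCA, and 9.13, 9.69 and 9.26 under PALBO. In APP cells it was 8.73, 8.92 and 8.71 under DMSO, 9.09, 9.45 and 9.34 under AG494, and 8.72, 8.93 and 8.76 under NOSCA. Every APP array lay below every WT array with the same medium, and the APP arrays under AG494 lay above those under DMSO and NOSCA. The difference between genotypes under vehicle was -1.08 (SE 0.14, adjusted p = 2.7e-05), with -1.02, -1.12 and -1.09 within the runs. Both CCN1 probe sets passed, at -1.08 and -0.99.

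CCN2 (CTGF), the other classical YAP and TEAD target and the promoter with 3 motifs above, was at low signal everywhere. Its group means lay between 5.01 ± 0.10 in WT vehicle cells and 5.12 ± 0.02 in APP vehicle cells. The difference between those groups was 0.11 (adjusted p = 0.54), and none of its 3 probe sets passed in that comparison or under PALBO. At such a dim signal a change in the transcript may not be detectable.

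SOX9, a transcription factor of neural crest, glial and cartilage progenitors, had the same order of group means as YAP1 in WT cells, from DMSO through AG494 and NOSCA to PALBO. Its signal was 10.21, 10.45 and 9.89 under DMSO, 9.77, 9.96 and 9.76 under AG494, 9.41, 10.03 and 9.59 under NOSCA, and 8.67, 8.84 and 8.80 under PALBO. In APP cells it was 9.28, 9.60 and 9.86 under DMSO, 9.84, 10.03 and 10.27 under AG494, and 9.32, 9.48 and 9.72 under NOSCA. The 3 PALBO arrays were below all others, while all the other neighbouring groups in the order of means overlapped. SOX9 fell by 1.41 under PALBO (SE 0.17, adjusted p = 5e-05), the largest PALBO difference among the 10 genes, and all 3 of its probe sets passed, from -1.49 to -1.41. In APP vehicle cells it differed by -0.60 (SE 0.17, adjusted p = 0.032), with -0.92, -0.85 and -0.03 within the runs. This genotype call rested on single arrays: the adjusted p was 0.091 without WT vehicle replicate 1, 0.16 without replicate 2, 0.17 without APP vehicle replicate 1 and 0.075 without replicate 2. Of the 3 SOX9 probe sets, 2 passed between genotypes.

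SNAI2 (SLUG), a repressor of epithelial genes active in migrating neural crest, had the widest spread of the 10 genes in the WT vehicle arrays. Its signal was 8.13, 7.14 and 6.86 under DMSO, 7.53, 6.85 and 6.76 under AG494, 7.48, 6.99 and 7.07 under NOSCA, and 6.89, 6.53 and 6.31 under PALBO. In APP cells it was 6.26, 6.03 and 6.40 under DMSO, 6.11, 5.90 and 6.00 under AG494, and 6.19, 5.89 and 6.03 under NOSCA. The array of the first run was the highest in all 4 WT groups. APP cells lay below WT cells in each shared medium with no overlap. Under vehicle the difference was -1.15 (SE 0.25, adjusted p = 0.0059), and within the runs -1.87, -1.10 and -0.46. The call was lost with the spread estimated from those groups alone (adjusted p = 0.071). Under PALBO, SNAI2 differed from WT vehicle by -0.80 (adjusted p = 0.069), with overlapping groups and within-run differences of -1.24, -0.60 and -0.54. That comparison passed with the run as a block (adjusted p = 0.0046) and without WT vehicle replicate 3 (adjusted p = 0.018).

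VIM encodes vimentin, the intermediate filament of mesenchymal and many undifferentiated cells, and its differences were small. Its signal in WT cells was 12.70, 12.64 and 12.59 under DMSO, 12.61, 12.55 and 12.53 under AG494, 12.58, 12.56 and 12.53 under NOSCA, and 12.35, 12.22 and 12.13 under PALBO. In APP cells it was 12.26, 12.29 and 12.29 under DMSO, 12.16, 12.16 and 12.15 under AG494, and 12.31, 12.36 and 12.34 under NOSCA. All 9 APP arrays lay below the 9 WT arrays without PALBO, and the PALBO arrays overlapped the range of the APP arrays. The difference from WT vehicle cells was -0.36 in APP vehicle cells (SE 0.06, adjusted p = 5e-04) and -0.41 under PALBO (SE 0.06, adjusted p = 0.00034). Both of its probe sets passed in both comparisons. With the spread estimated from the groups compared alone, the PALBO call was lost (adjusted p = 0.052).

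PRRX1 and TWIST1, homeobox and helix-loop-helix factors of mesenchyme, did not pass the test in any comparison at the settings used throughout. PRRX1 group means were 4.86 ± 0.18 to 5.04 ± 0.17, and its genotype difference under vehicle was 0.09 (adjusted p = 0.70). TWIST1 was among the brightest probe sets, at 12.68, 12.69 and 12.64 in WT vehicle cells and 12.39, 12.34 and 12.64 in APP vehicle cells. Its difference of -0.21 had an adjusted p of 0.13, and it passed without APP vehicle replicate 3 (-0.30, adjusted p = 0.023) and, narrowly, with median centring (-0.26).

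**Figure D2:**
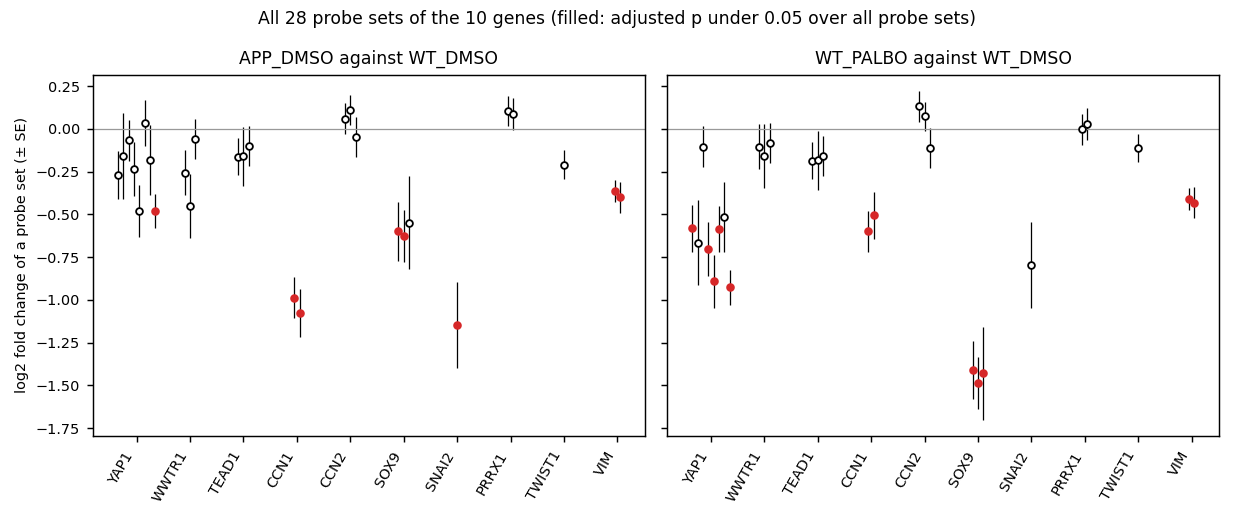
Log2 difference with its standard error (vertical axes) for every probe set of the 10 genes (horizontal axes). The panels show APP against WT vehicle cells and PALBO against DMSO in WT cells. The YAP1 probe sets scatter from -0.48 to 0.03 between genotypes and all lie below 0 under PALBO, whereas the CCN1, SOX9 and VIM probe sets of a gene lie close together.

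Counted over the 10 genes, 5 (YAP1, CCN1, SOX9, SNAI2 and VIM) passed the test as lower and none as higher in APP vehicle cells. Over all 18132 genes, 9.25% passed in either direction and 4.05% as lower. The 10 genes were chosen with earlier results of these data known. Their shares, here and below, are thus not independent of the data. The median difference was -0.31 over the 10 genes and 0.02 over all genes. With the run as a block the same 5 genes passed, beside 17.4% of all genes. Under AG494 the difference between genotypes uses no vehicle sample, although the spread was still estimated from all arrays. There 3 genes (CCN1, SNAI2 and VIM) passed as lower, against 9.02% of all genes in either direction and 4.92% as lower. Under NOSCA the same 3 genes passed as lower, against 7.2% of all genes in either direction and 3.65% as lower.

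CCN1 differed between genotypes by -0.71 under AG494 (adjusted p = 0.0018) and by -1.05 under NOSCA (adjusted p = 4.4e-05), where the within-run differences were -1.05, -1.04 and -1.05. SNAI2 differed by -1.04 under AG494 (adjusted p = 0.011) and by -1.14 under NOSCA (adjusted p = 0.0074). VIM differed by -0.41 under AG494 (adjusted p = 0.00015) and by -0.22 under NOSCA (adjusted p = 0.032). These 3 genes, a secreted YAP target, a crest repressor and a filament, were thus lower in the mutated line whichever of the 3 media was used. The SNAI2 call under AG494 was lost without WT AG494 replicate 1 (-0.80, adjusted p = 0.088), and the VIM call under NOSCA was lost without any one of its 6 arrays (adjusted p = 0.059 to 0.11).

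YAP1 and SOX9 passed between genotypes under vehicle alone. YAP1 differed by -0.29 under AG494 (95% interval -0.50 to -0.08, adjusted p = 0.083, 0.033 with the run as a block, and 0.021 without APP AG494 replicate 2) and by -0.08 under NOSCA (95% interval -0.29 to 0.13, adjusted p = 0.75). All 8 YAP1 probe sets were below 0 in both comparisons, and none passed. They ran from -0.36 to -0.07 under AG494 and from -0.49 to -0.08 under NOSCA, where the chosen probe set had the smallest difference. SOX9 differed by 0.22 under AG494 (95% interval -0.14 to 0.58, adjusted p = 0.58) and by -0.17 under NOSCA (95% interval -0.53 to 0.19, adjusted p = 0.68). Whether these differ from the vehicle difference was tested as an interaction of compound with genotype. The interaction passed for none of the 10 genes, where 0.0386% of all genes passed for AG494 and 0% for NOSCA. Of all 18132 genes, 1365 had an unadjusted p under 0.05 for AG494 and 895 for NOSCA, and 1 of the 10 genes had one in each. Those were SOX9 with AG494 (0.82, SE 0.24, adjusted p = 0.27, and 0.058 with the block) and YAP1 with NOSCA (0.40, adjusted p = 1). Over the 8 YAP1 probe sets the interaction with NOSCA ran from -0.33 to 0.40, with 4 below 0 and none passing. TWIST1 differed by -0.26 under NOSCA (adjusted p = 0.062). It passed with the block (adjusted p = 0.028), with the mean of probe sets (0.045), without the dimmest genes (0.042), with median centring (0.048) and with a trended prior (0.024).

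**Figure D3:**
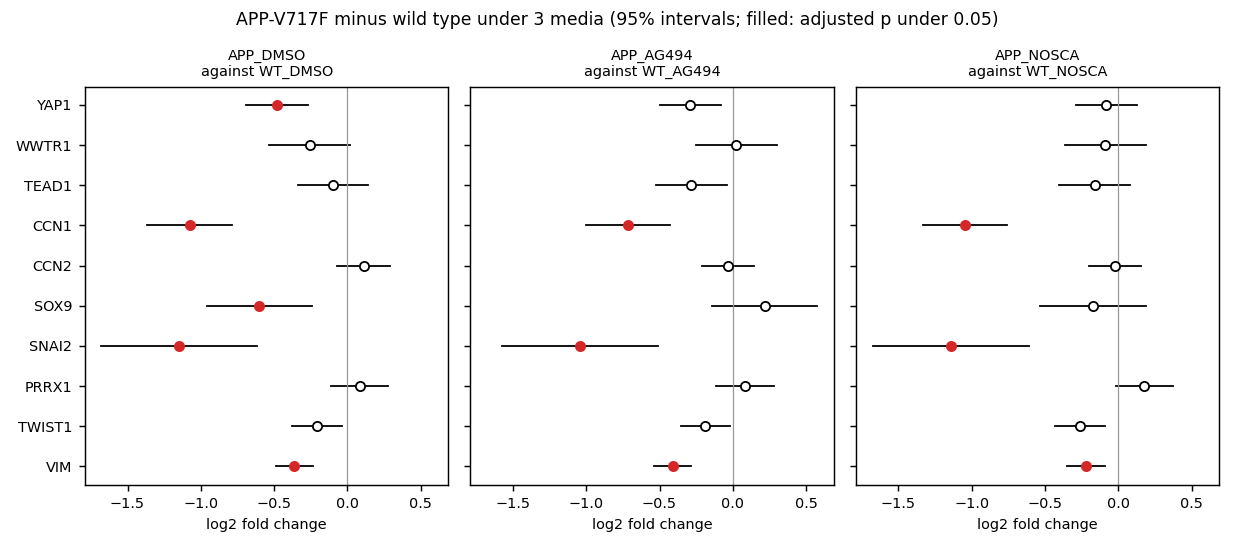
Log2 difference of APP from WT cells (horizontal axis) with 95% intervals for the 10 genes under DMSO, AG494 and NOSCA. Filled red points passed at an adjusted p under 0.05; CCN1, SNAI2 and VIM are filled under all 3 media, YAP1 and SOX9 under DMSO alone.

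Of the compounds given to WT cells, PALBO was the one under which any of the 10 genes passed the test against DMSO. YAP1, CCN1, SOX9 and VIM passed as lower than under DMSO, 4 of 10 genes, and none passed as higher; of all genes 6.98% passed in either direction and 3.87% as lower. CCN1 fell by 0.51 (SE 0.14, adjusted p = 0.029), and within the runs the differences were -0.63, -0.35 and -0.55. The CCN1 call was lost without WT PALBO replicate 1 (adjusted p = 0.15) or 3 (0.12) or WT vehicle replicate 2 (0.14). The WT vehicle arrays also serve as the control of the genotype comparison, so the 2 sets of values are not independent: side by side, YAP1 was at -0.48 between genotypes and -0.93 under PALBO, SOX9 at -0.60 and -1.41, CCN1 at -1.08 and -0.51, and VIM at -0.36 and -0.41.

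PALBO was also set against the other compounds, without the vehicle arrays. Against AG494 in WT cells, 4 of the 10 genes passed as lower, where 3.25% of all genes passed and 2.05% as lower. YAP1 differed by -0.76 (adjusted p = 0.00028), CCN1 by -0.65 (0.011), SOX9 by -1.06 (0.0014) and VIM by -0.33 (0.0036). The CCN1 call was lost without WT PALBO replicate 1 (adjusted p = 0.06) or 3 (0.065) or WT AG494 replicate 2 (0.071). Against NOSCA, 3 of the 10 passed as lower, where 3.23% of all genes passed and 2.1% as lower. There YAP1 differed by -0.58 (adjusted p = 0.0023), SOX9 by -0.91 (0.0044) and VIM by -0.33 (0.0042). With the run as a block, CCN1 (-0.49, adjusted p = 0.061, and 0.00036 with the block) and SNAI2 (-0.60, adjusted p = 0.32, and 0.045 with the block) also passed, making 5 genes. Of all genes, 7.23% passed against NOSCA with the block. CCN1 passed there also without WT PALBO replicate 2 (adjusted p = 0.011). The doses of the compounds are not given in the sources used here, so these values do not compare the compounds at matched doses.

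AG494 and NOSCA moved none of the 10 genes past the test in WT cells. Under AG494, 0.254% of all genes passed, and none of the 10 had an unadjusted p under 0.05, beside 1474 of 18132 genes. Under NOSCA, 0.0165% of all genes passed. There 1253 of all genes had an unadjusted p under 0.05, among them 2 of the 10. These were YAP1 (-0.34, 95% interval -0.55 to -0.13, adjusted p = 0.38) and SOX9 (-0.50, 95% interval -0.86 to -0.14, adjusted p = 0.51), both lower than under vehicle. Of the 8 YAP1 probe sets 5 were below 0 under NOSCA, from -0.34 to 0.14 over the 8, and none passed. For CCN1 the intervals were -0.15 to 0.43 under AG494 and -0.30 to 0.27 under NOSCA.

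In APP cells, CCN1 rose under AG494 by 0.50 (SE 0.14, adjusted p = 0.04), and within the runs by 0.36, 0.53 and 0.63. It was the 1 gene of the 10 that passed, where 4.75% of all genes passed in either direction and 1.99% as higher. The call was lost without APP vehicle replicate 1 (adjusted p = 0.11) or 3 (0.16) or APP AG494 replicate 2 (0.19) or 3 (0.13), and 1 of the 2 CCN1 probe sets passed (0.23 and 0.50). SOX9 differed by 0.47 (adjusted p = 0.15), within the runs by 0.56, 0.43 and 0.42, and passed with the run as a block (adjusted p = 0.041). In WT cells under AG494 the same 2 genes stood at 0.14 (CCN1) and -0.35 (SOX9) against vehicle, with overlapping groups. Under NOSCA in APP cells none of the 10 genes passed, and none had an unadjusted p under 0.05; of all genes 0% passed, with 959 at an unadjusted p under 0.05. The YAP1 interval there was -0.15 to 0.26, that of CCN1 -0.27 to 0.30 and that of SOX9 -0.43 to 0.29.

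**Figure D4:**
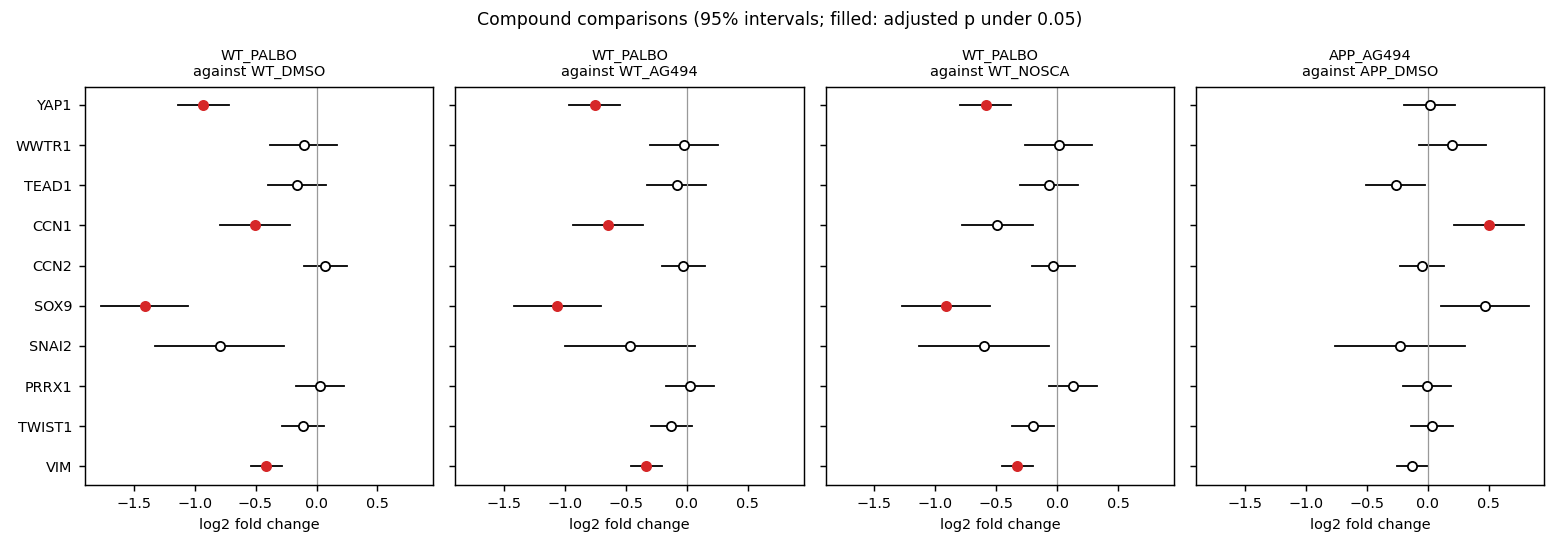
Log2 difference (horizontal axis) with 95% intervals for the 10 genes. The panels show PALBO against DMSO, against AG494 and against NOSCA in WT cells, and AG494 against DMSO in APP cells. Filled red points passed at an adjusted p under 0.05. They are YAP1, CCN1, SOX9 and VIM for PALBO against DMSO and against AG494. Against NOSCA they are YAP1, SOX9 and VIM, and in APP cells under AG494 CCN1 alone.

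Among the genes upstream and downstream of YAP1, some passed in both directions between genotypes, and those that passed under PALBO were lower. The counts in this and the following lists stand beside 9.25% of all genes passing between genotypes (942 higher and 735 lower), 6.98% under PALBO (564 higher and 701 lower) and 4.75% under AG494 in APP cells (361 higher and 500 lower). Counts with the run as a block stand beside larger shares. These were 17.4% between genotypes (1857 higher and 1294 lower), 15.1% under PALBO (1397 and 1332) and 11.8% under AG494 in APP cells (856 and 1281). The median over all genes was 0.02 between genotypes and 0.00 under PALBO. Of 18 Hippo pathway kinases and scaffolds, 2 fell in APP vehicle cells, WWC2 (-0.62) and MOB1B (-0.39), an adaptor of the LATS kinases, and 1 rose, MAP4K4 (0.27), with a list median of -0.03. Under PALBO 2 of the 18 fell, STK3 (-0.50), the MST2 kinase, and STRN (-0.30), with a list median of -0.08. With the run as a block, 1 rose and 4 fell. Of 19 partners of YAP, 2 fell in APP vehicle cells, SMAD7 (-0.79) and PTPN14 (-0.72), a phosphatase that retains YAP in the cytoplasm, and 2 rose, ERBB4 (0.95) and FAT1 (0.54). The list median was 0.04, and with the block 4 rose and 2 fell. Under PALBO 3 of the 19 fell, PTPN14 (-0.72), TP73 (-0.50) and AMOT (-0.25), with a list median of 0.04. With the block 2 rose and 3 fell. PTPN14 is also counted among the target genes below.

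Of 27 listed YAP and TEAD target genes, 3 fell and 1 rose in APP vehicle cells: F3 (-0.97), the tissue factor gene, PTPN14 (-0.72) and RBMS3 (-0.62) fell, and AMOTL2 (0.50) rose. The median over the list was -0.02, and with the block 6 fell. ANKRD1, a commonly used YAP readout, stood at -0.02 (adjusted p = 0.97). Under PALBO 4 of the 27 fell, GADD45A (-1.15), PTPN14 (-0.72), BIRC5 (-0.36) and CDC6 (-0.31), with a list median of -0.01. BIRC5 and CDC6 also act in cell division and DNA replication, and GADD45A is also a stress response gene. In APP cells under AG494, NT5E (0.97) and PTPN14 (0.50) rose and BIRC5 (-0.46) fell, and with the block 4 rose and 4 fell. Of the 4 other CCN family genes none passed in APP vehicle cells or under PALBO, with or without the block. CCN1 was therefore lower in the mutated line while most listed targets did not pass.

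**Figure D5:**
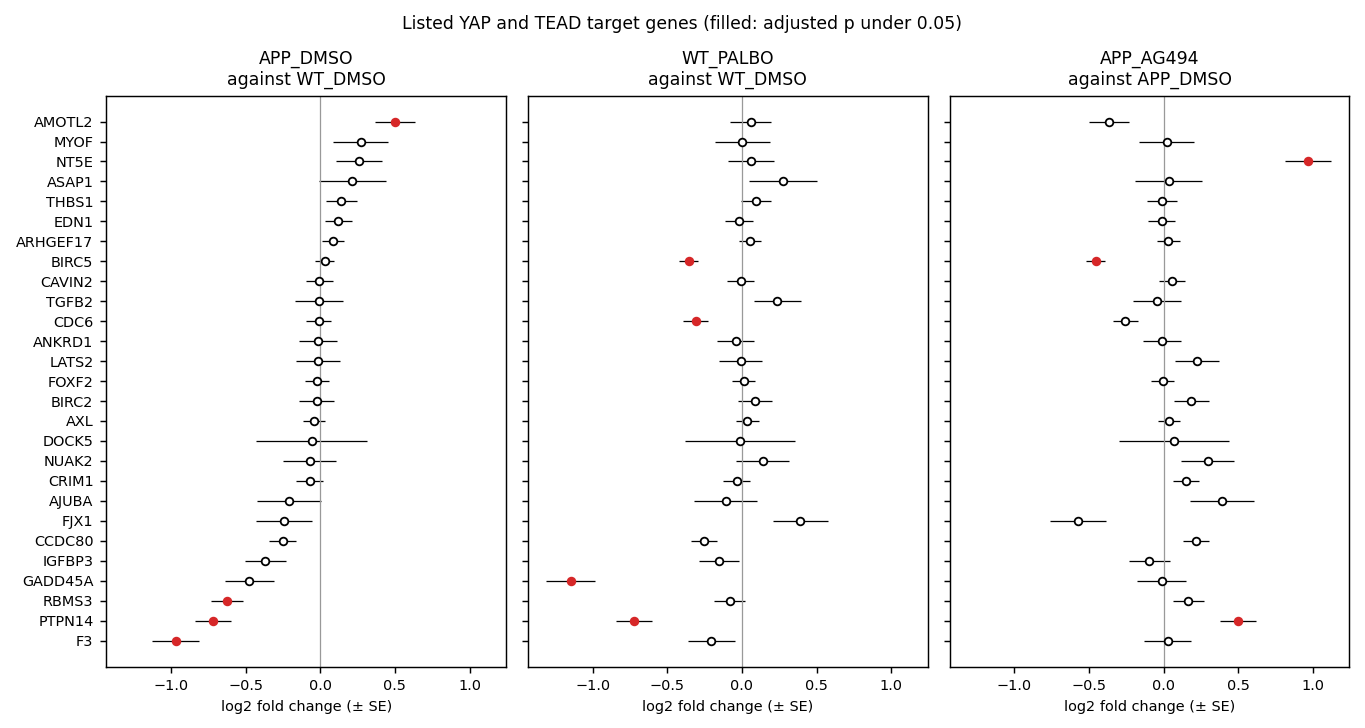
Log2 difference with its standard error (horizontal axes) of the listed YAP and TEAD target genes. The panels show APP against WT vehicle cells, PALBO against DMSO in WT cells, and AG494 against DMSO in APP cells. Most genes lie near 0 between genotypes and under PALBO. F3, PTPN14 and RBMS3 lie lowest between genotypes and GADD45A and PTPN14 under PALBO. In APP cells under AG494, NT5E and PTPN14 passed above 0 and BIRC5 below 0.

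Of 11 relatives of the SOX, SNAI, PRRX and TWIST genes, 2 fell in APP vehicle cells, PRRX2 (-1.68) and SNAI1 (-1.27), and the same 2 fell under PALBO (-0.83 and -0.70), with list medians of -0.03 and -0.09. ZEB1 and ZEB2, which also drive mesenchymal change, stood at 0.01 and 0.07 between genotypes (adjusted p = 0.97 and 0.89). Of 24 neural crest and mesenchymal transcription regulators, 4 fell in APP vehicle cells, among them ID1 (-2.83) and ETS1 (-1.22), and 2 rose, IRF1 (1.04) and TBX18 (0.71). The list median was -0.07, and with the block 7 fell. Under PALBO 4 of the 24 fell, among them SIX4 (-0.71), MAML2 (-0.66) and ETS1 (-0.62), with a list median of -0.09. With the block 8 fell and 1 rose.

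Of 24 genes of matrix, adhesion and contractility tied to epithelial-mesenchymal transition, 5 fell in APP vehicle cells, among them LOX (-1.40), a collagen crosslinking enzyme, COL1A1 (-1.19) and CDH11 (-0.73), while the list median was 0.00. With the block 6 fell and 2 rose. Under PALBO 5 fell, among them ACTA2 (-1.15), smooth muscle actin, COL1A1 (-0.88), LOX (-0.83) and FN1 (-0.43). In APP cells under AG494 2 rose, TGFB1 (0.60) and SPARC (0.39), and with the block 5 rose and 1 fell. Vimentin was not joined by the other filaments under PALBO, where none of 12 intermediate filament genes passed (4 rose and 1 fell with the block). In APP vehicle cells 2 of the 12 fell, the neurofilament genes NEFM (-0.77) and NEFL (-0.47), which mark neurons and not mesenchyme, and with the block 2 fell and 3 rose.

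Among the 10 genes, 3 (CCN1, SOX9 and SNAI2) had group means spanning 1 log2 unit or more over the 7 groups, as did 690 of 18132 genes (3.81%). The genes whose 7 centred group means lay nearest to theirs were found by root mean square distance in log2 units. For CCN1 these were NPY2R (0.0673), PALMD (0.0879) and CREB3L2 (0.0979). For SNAI2 they were LOX (0.0871), TMEM178A (0.0996) and EFHD1 (0.108). For SOX9 they were ELF4 (0.114), GLI2 (0.187) and POLH (0.190). The distances describe 7 means of 3 arrays each.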

How the data were processed

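RNA of 21 SH-SY5Y cultures was measured on Affymetrix PrimeView arrays from 25 ng of RNA per the labels' protocols. The deposited values are log2 signals. RMA and the affy package are named in the submitters' processing notes, and their versions are not given in the sources used here. RMA quantile normalization can hide a shift shared by most genes. No further normalization was applied. The median difference of all genes moved by less than 0.1 under median centring.

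Probe sets were named through GEO's platform annotation. Those of exactly 1 gene were kept, 1 per gene by highest mean, giving 18132 genes. limma 3.58.1 (R 4.3.3) fitted 7 group means on all 21 arrays, with moderated tests and Benjamini-Hochberg adjustment per comparison at 0.05. The fit was tested on simulated data. The residual degrees of freedom were 14, and 3 arrays a group limit the precision. Groups came from the sample labels.

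The title numbers fall into 3 runs (1 to 10, 11 to 20, 21 to 30), and the arrays of a run deviate together. Deviations from group means correlated at 0.226 to 0.685 within runs (63 pairs) and at -0.529 to 0.0889 between runs (126 pairs). The runs therefore pair the arrays, and a fit with the run as a block was an alternative. The labels name 3 independent experiments but do not state this pairing.

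The members and the gene lists were chosen with earlier results of these data known. All 10 members are named. Of each list, up to 4 genes past the threshold are named per comparison, by size of difference. Genes named without passing (TEAD4, ANKRD1, ZEB1 and ZEB2) were chosen after their values were seen. Alternatives were the block, only the groups compared, other probe set rules, median centring, a trended variance, quantile normalization again, removal of the dimmest genes and leaving out each array. Averaging the probe sets per gene was one of these, whereas fitting every probe set separately, with p adjusted over all of them, was added after seeing the data. Promoters are RefSeq's (GRCh38.p14).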

Additional observations from a re-analysis of the deposited data

How the results depend on the processing

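No difference that passed the test changed direction under any alternative run. Alternative values were counted for the 10 genes in the 6 comparisons of genotype under vehicle and of compound against vehicle. Of these, 800 kept their side of the threshold, 17 lost the call and 5 gained it. Differences that passed in neither fit could change direction and still count among the 800. The number of the 10 genes that passed changed most when the spread was estimated from the groups compared alone. It was then 3 for APP against WT vehicle cells (5 with all arrays), 2 for PALBO against DMSO (4), 0 for AG494 against DMSO in APP cells (1) and 2 for PALBO against AG494 (4), and it was 2 (3) both for PALBO against NOSCA and for the genotypes under NOSCA. The calls lost were SOX9 (adjusted p = 0.12) and SNAI2 (0.071) between genotypes under vehicle, CCN1 (0.14) and VIM (0.052) under PALBO, CCN1 (0.057) under AG494 in APP cells, CCN1 (0.10) and VIM (0.11) in PALBO against AG494, and VIM in PALBO against NOSCA (0.13) and between genotypes under NOSCA (0.14). That fit uses fewer arrays to estimate the spread. With the replicate block, the count was 2 for AG494 against DMSO in APP cells, the addition being SOX9, where 11.8% of all genes passed. It was 5 for PALBO against NOSCA (3 without the block), the additions being CCN1 and SNAI2, where 7.23% of all genes passed. The block also changed the call of SNAI2 under PALBO, YAP1 between genotypes under AG494 and TWIST1 between genotypes under NOSCA, as given beside those results. It changed the call of no other value of the 10 genes. Leaving out each replicate in turn gave 0 to 1 for AG494 against DMSO in APP cells. The VIM difference between genotypes under NOSCA had an adjusted p of 0.11 with the mean of its probe sets. The number of arrays, and for CCN2 and PRRX1 the dim signal, limit what could be detected.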

Other observations

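Markers of other cell states moved beside the 10 genes in several comparisons, by limma's fit with Benjamini-Hochberg adjustment. Of 8 noradrenergic neuroblast markers, INSM1, a transcription factor of neuroendocrine cells, rose by 1.71 in APP vehicle cells (adjusted p = 0.00015) and DBH, the noradrenaline-synthesising enzyme, fell by 0.31 (adjusted p = 0.0046). INSM1 fell by 2.76 in APP cells under AG494 (adjusted p = 6.6e-06). ISL1 was the 1 marker of this list that passed under PALBO, where it rose by 0.43 (adjusted p = 0.0036). Of 6 glial markers, S100B fell by 1.01 in APP vehicle cells (adjusted p = 9.5e-05) and rose by 0.95 under PALBO (adjusted p = 0.00039), and no other passed in either. Fibroblast markers were divided in APP vehicle cells: of 8, DCN (decorin) rose by 1.55 (adjusted p = 0.0078) and FAP by 0.55 (adjusted p = 0.0073), while PDGFRA fell by 0.82 (adjusted p = 0.017) and 1 further marker fell. NT5E, a surface enzyme of mesenchymal cells and a listed YAP target, rose under AG494 in both genotypes, by 0.79 in WT cells (adjusted p = 0.031) and by 0.97 in APP cells (adjusted p = 9e-04). The part of these cell states in the values of the 10 genes was not tested.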
